A study of Homo sapiens with 4 samples.

Results

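ERK feedback and output transcripts are described here across 4 RNA-seq libraries, and they comprised DUSP4, DUSP5, DUSP6, SPRY2, SPRY4, SPRED1, SPRED2, ETV4, ETV5 and PHLDA1. They were taken by symbol from a list of names, and all 10 were found among the 32955 genes of the table. RNA-seq was performed on MDA-MB-231, an established human breast cancer cell line, grown in DMEM with fetal bovine serum. The study asked what miR-217 does in breast cancer cells. The cells of 2 libraries had received mimic NC, an oligonucleotide that serves as negative control, and those of the other 2 had received miR-217 mimic, a synthetic RNA that supplies miR-217. The dose and the time after transfection are not given in the sources used here. Each group held replicate numbers 1 and 2 (rep 1 and rep 2). The labels do not say whether the replicates were separate cultures or what a number marks, so that the p-values below measure the spread between these libraries, which may be technical. All libraries share the cell line, and in bulk RNA a change in every cell and a change in some of the cells cannot be told apart.

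The MEK/ERK cascade carries signals from growth factor receptors through RAS and RAF to the ERK kinases, which act in the nucleus on transcription factors. Among the genes whose transcription active ERK raises are brakes on the cascade itself: DUSP phosphatases take phosphate off ERK, and Sprouty and SPRED proteins act between receptor, RAS and RAF. Transcripts of these brakes and of the ETS factors ETV4 and ETV5 are often read together as a measure of ERK output in tumour cells. Immediate-early genes such as FOS and EGR1 are also induced by ERK, but quickly and for a short time.

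Each library held 32635814 to 57933183 reads on genes, with the fewest in miR-217 mimic rep 2. RPKM is the number of reads on a gene divided by its exon length and by the sum of reads in the library, so that levels of different genes can be compared. The libraries divided by replicate number before anything else, since the first principal component held 71.3% of the variance, with both rep 1 libraries at -19.7 and -17.3 and both rep 2 libraries at 12.2 and 24.8. Genes of the labelled line were present, with VIM at 27.9 to 36.9 RPKM, CD44 at 13.5 to 26.0, CAV1 at 5.17 to 7.92, EGFR at 19.5 to 22.7 and AXL at 6.23 to 8.71. Of the luminal breast genes, ESR1 (0.0294 to 0.0756 RPKM), GATA3 (0.0637 to 0.104), CDH1 (0.169 to 0.433) and KRT19 (0.416 to 0.944) were below 1 RPKM in every library, FOXA1 was at 1.30 to 1.70, and PGR and TFF1 were not listed.

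The largest difference among the 10 transcripts lay between the replicate numbers and not between the mimics. ETV4 and ETV5 were 4.20 and 5.20 times as high in the rep 2 libraries as in the rep 1 libraries, and DUSP4 and PHLDA1 were 1.86 and 1.75 times as high, all 4 at an adjusted p under 0.05. ETV4 and ETV5 averaged under 1 RPKM in the rep 1 libraries and so entered the test through the rep 2 libraries, and with no filter on low values 0 members passed that threshold by limma, although 6 had an unadjusted p under 0.05. SPRY2, SPRY4 and SPRED2 were also higher in both rep 2 libraries than in both rep 1 libraries, without reaching the threshold, and so was SPRED1, which was too low to be tested. DUSP5 lay the other way and DUSP6 did not separate. With miR-217 mimic, none of the 10 separated from mimic NC.

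**Figure D1:**
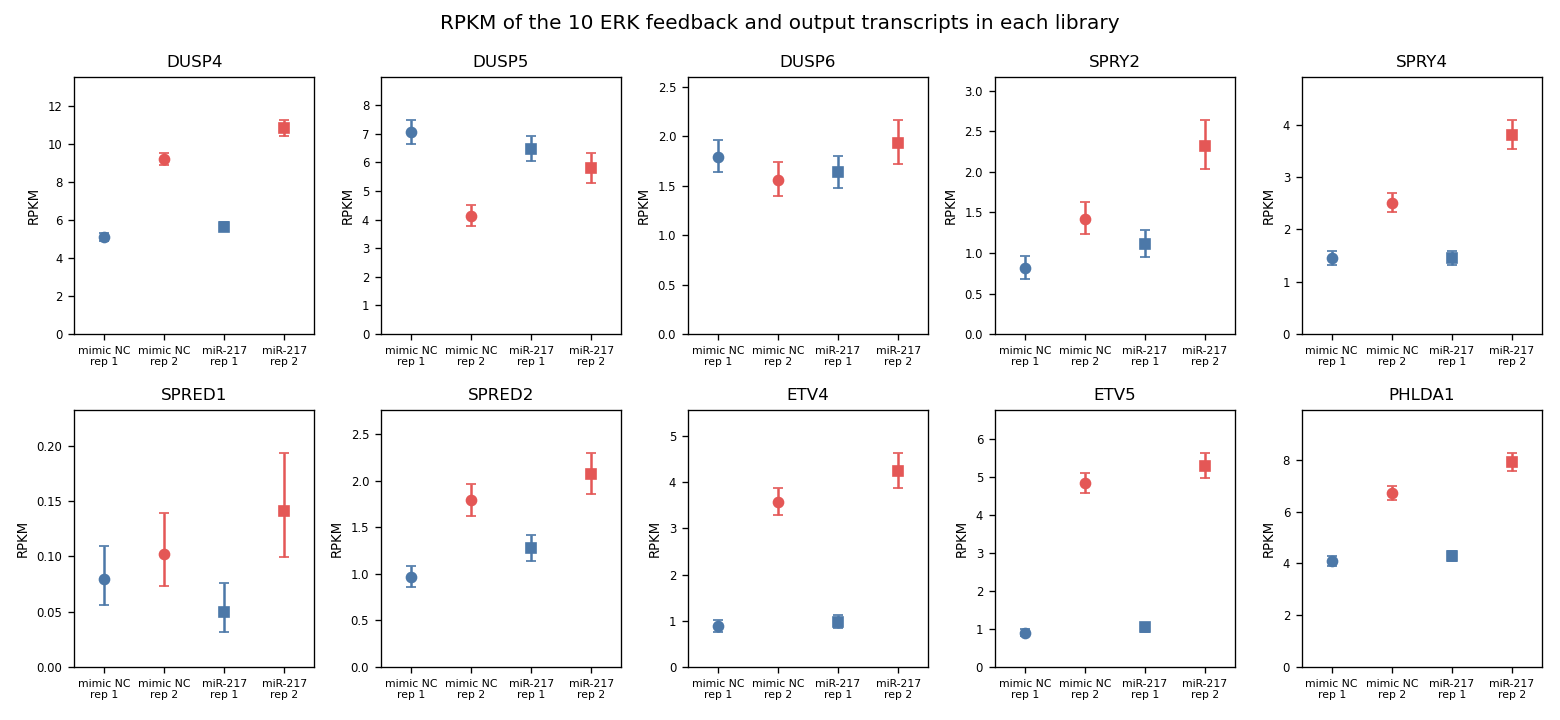
RPKM (vertical axes, each from 0) of each of the 10 transcripts in the 4 libraries, with rep 1 in blue, rep 2 in red, mimic NC as circles and miR-217 mimic as squares. Bars are exact 95% intervals for counting error only; the ETV4 and ETV5 points lie at or below 1.04 RPKM in rep 1 and at or above 3.57 in rep 2.

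The 3 highest transcripts on average were DUSP4 at 7.71 RPKM, DUSP5 at 5.86 and PHLDA1 at 5.74. They lay above 62.4%, 54.8% and 54.2% of the 13871 genes tested, which had a mean of at least 1 RPKM. ETV5 (3.02 RPKM), ETV4 (2.42), SPRY4 (2.30), DUSP6 (1.73), SPRED2 (1.53) and SPRY2 (1.42) followed. SPRED1 came last at 0.0931 RPKM, did not enter the tests, and was the one member separated from its neighbour in this order. In every other neighbouring pair the ranges over the 4 libraries overlapped. The order itself differed by number. In the rep 1 libraries DUSP5 was highest on average (6.76 RPKM) and ETV5 (0.972) and ETV4 (0.929) lay below SPRED2 (1.12). In the rep 2 libraries DUSP4 was highest (10.03 RPKM), and ETV5 (5.06) stood above DUSP5 (4.965).

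ETV4 and ETV5 belong to the PEA3 subfamily of ETS transcription factors, which act downstream of ERK. ETV4 (hg38, chr17:43527844-43579620, minus strand) was at 0.881 RPKM in mimic NC rep 1, 3.57 in mimic NC rep 2, 0.977 in miR-217 mimic rep 1 and 4.24 in miR-217 mimic rep 2, from 184, 610, 188 and 499 reads. Both rep 2 libraries lay far above both rep 1 libraries, at 3.90 ± 0.473 RPKM (SD, n = 2) and 0.929 ± 0.0681 (SD, n = 2). The difference was 1.34 on the log2(RPKM + 1) scale (SE 0.10, adjusted p = 0.0136 by limma, fitted over all genes tested). Since 1 is added to each value, this scale understates the change of low transcripts. On the recovered reads, under the same filter, limma voom gave a log2 fold change of 2.05 (adjusted p = 0.000532, the lowest over the alternatives, whose highest was 0.0931).

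ETV5 (chr3:186046308-186110318, minus strand) was at 0.904 and 4.83 RPKM in mimic NC rep 1 and rep 2, and at 1.04 and 5.29 in miR-217 mimic rep 1 and rep 2. The corresponding reads numbered 304, 1328, 322 and 1001. As for ETV4, the replicate numbers separated and the mimics did not, with 5.06 ± 0.322 RPKM in rep 2 and 0.972 ± 0.0960 in rep 1 (SD, n = 2 each). The log2 fold change was 1.62 (SE 0.09, adjusted p = 0.0104 by limma), the 10th highest of the 13871 genes, while ETV4 ranked 24th. Both genes entered the test, and so this ranking, through the rep 2 libraries. Over the alternatives the adjusted p of ETV5 reached 0.0911 by limma. Within mimic NC alone ETV5 was 5.34 times as high in rep 2 (95% counting interval 4.71 to 6.07), and within miR-217 mimic alone 5.08 times (4.48 to 5.78). For ETV4 these ratios were 4.05 (3.43 to 4.81) and 4.34 (3.66 to 5.16). These intervals cover counting error only, and reads without molecular identifiers are not independent molecules.

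A short stretch of ETV5 is shared with another gene. Of its 5802 exon bases, 164 (2.83%) also belong to DGKG, a diacylglycerol kinase gene on the same strand, which held 130 and 490 reads in mimic NC rep 1 and rep 2, and 173 and 379 in miR-217 mimic. DGKG was thus also higher in rep 2, at 0.942 and 1.06 RPKM against 0.204 and 0.295, and what the shared bases add to either gene was not tested. ETV4 shared 68 bases (1.89%) with DHX8 on the opposite strand, and DHX8 was at 6.68 to 8.18 RPKM.

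The DUSP members are dual-specificity phosphatases that act on MAP kinases, DUSP4 and DUSP5 in the nucleus and DUSP6 in the cytoplasm. DUSP4 (chr8:29333064-29350668, minus strand) was at 5.12 and 9.22 RPKM in mimic NC rep 1 and rep 2 and at 5.65 and 10.8 in miR-217 mimic rep 1 and rep 2. Both rep 2 libraries stood above both rep 1 libraries, with a log2 fold change of 0.79 (SE 0.10, adjusted p = 0.0300 by limma).

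DUSP5, whose product is specific for ERK, was the member that lay the other way. DUSP5 (chr10:110497838-110511544, plus strand) was at 7.04 and 4.14 RPKM in mimic NC rep 1 and rep 2 and at 6.48 and 5.79 in miR-217 mimic rep 1 and rep 2. Both rep 2 libraries were lower than both rep 1 libraries, at 0.588 times in mimic NC (counting interval 0.528 to 0.654) and 0.893 times in miR-217 mimic. The log2 difference of -0.39 (SE 0.15) had an adjusted p of 0.160 by limma and is not a call.

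DUSP6, a widely used readout of ERK activity and also specific for ERK, was nearly level. DUSP6 (chr12:89347232-89353271, minus strand) was at 1.79 and 1.56 RPKM in mimic NC rep 1 and rep 2 and at 1.64 and 1.93 in miR-217 mimic rep 1 and rep 2. The numbers overlapped, and their means were 1.72 ± 0.109 and 1.75 ± 0.261 RPKM (SD, n = 2 each), with a log2 difference of 0.01 (SE 0.10, adjusted p = 0.937 by limma). This value is less certain than the others, since 1875 of the 4632 exon bases of DUSP6 (40.5%) lie opposite exons of an antisense gene known only by a clone name. That gene was at no less than 2.66 RPKM in any library, and whether reads were counted by strand is not given in the sources used here. If they were not, reads from the shared bases cannot be assigned to one gene.

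Sprouty and SPRED proteins dampen signalling from receptor tyrosine kinases to RAS and RAF. SPRY4 (chr5:142310427-142326455, minus strand) was at 1.45 and 2.51 RPKM in mimic NC rep 1 and rep 2 and at 1.45 and 3.80 in miR-217 mimic rep 1 and rep 2. The rep 1 libraries were alike and both rep 2 libraries higher, with a log2 difference of 0.74 (SE 0.16, adjusted p = 0.0620 by limma). Limma voom called it, with a log2 fold change of 1.06 (adjusted p = 0.0121), and the adjusted p ranged from 0.00577 to 0.295 over the alternatives. SPRY2 (chr13:80335976-80340951, minus strand) was at 0.812 and 1.42 RPKM in mimic NC and at 1.11 and 2.32 in miR-217 mimic, with rep 1 first. Its numbers were also apart, with a log2 difference of 0.54 (SE 0.18, adjusted p = 0.129 by limma).

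SPRED2 (chr2:65310851-65432637, minus strand) was at 0.971 and 1.79 RPKM in mimic NC rep 1 and rep 2 and at 1.27 and 2.07 in miR-217 mimic rep 1 and rep 2. The log2 difference was 0.47 (SE 0.11, adjusted p = 0.0724 by limma), with no overlap between the numbers. Limma voom called SPRED2 too, at 0.78 (adjusted p = 0.0206), and over the alternatives the adjusted p reached 0.414. SPRED1, known for bringing the RAS inactivator NF1 to the membrane, was hardly detected. SPRED1 (chr15:38252326-38357249, plus strand) was at 0.0794 and 0.102 RPKM in mimic NC and at 0.0499 and 0.141 in miR-217 mimic, from 38, 40, 22 and 38 reads. Its rep 2 libraries were the higher ones too. In mimic NC, however, the counts of 38 and 40 reads gave a ratio of 1.29 whose counting interval reached from 0.805 to 2.06. In miR-217 mimic the counts of 22 and 38 reads gave a ratio of 2.82 (1.63 to 5.01). NF1 itself differed by 0.04 on the log2 scale between the numbers and by -0.06 between the mimics.

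PHLDA1 encodes a pleckstrin homology-like domain protein and is used as another transcript of ERK output. PHLDA1 (chr12:76025447-76033932, minus strand) was at 4.09 and 6.70 RPKM in mimic NC rep 1 and rep 2 and at 4.27 and 7.91 in miR-217 mimic rep 1 and rep 2. The rep 2 libraries were higher with either mimic, by 0.68 on the log2 scale (SE 0.10, adjusted p = 0.0337 by limma). The antisense gene RP11-290L1.3, which shares 553 of the 8069 exon bases of PHLDA1 (6.85%), moved with it, at 22.4 and 22.5 RPKM in rep 1 and 43.7 and 49.2 in rep 2. A second antisense gene, RP11-290L1.2, shares 9.65% of the bases and held at most 32 reads. As for DUSP6, it is not known whether reads were counted by strand, and what the shared bases add to PHLDA1 was not tested.

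**Figure D2:**
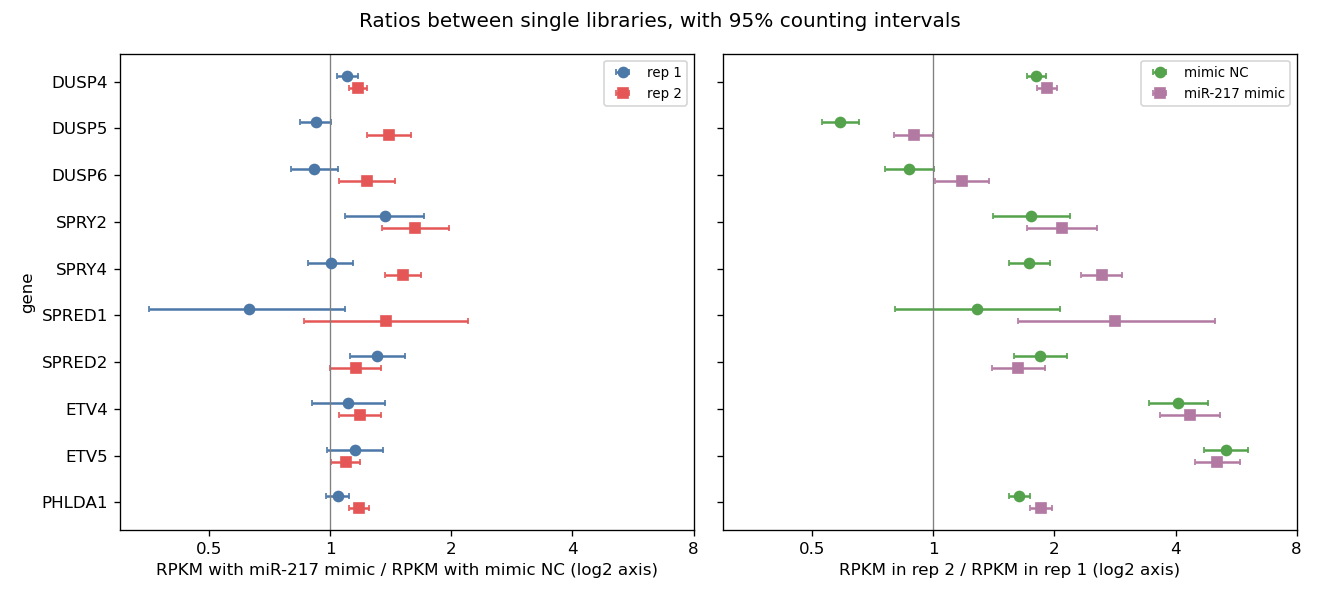
Ratio of RPKM between single libraries on a log2 axis, miR-217 mimic over mimic NC within each replicate number (left) and rep 2 over rep 1 within each mimic (right), for each transcript. Bars are exact 95% intervals for counting error only; on the right ETV4 and ETV5 lie between 4.05 and 5.34 with either mimic, and on the left every ratio lies between 0.629 and 1.63.

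Counted together, 7 of the 9 members tested were higher and 1 was lower in rep 2 at an unadjusted p under 0.05, where 12.8% of all genes tested were higher and 17.4% lower. At an adjusted p under 0.05, 4 of the 9 were higher, where 3.34% of all genes were. Rep 2 libraries were both above rep 1 libraries for 8 of the 10 members, and for 7 of the 9 tested, where 26.9% of all genes tested were. The median log2 difference of the 9 was 0.68 and that of all genes -0.04. SPRY2, ETV4 and ETV5 averaged under 1 RPKM in the rep 1 libraries and were tested because of the rep 2 libraries, so these counts lean towards members that are higher there. The members were also chosen with earlier results of these data known. Neither these counts nor those between the mimics can therefore show an excess over all genes. The adjusted calls depended on which libraries were in the fit. Without mimic NC rep 1, or without miR-217 mimic rep 1, 0 members were called at an adjusted p under 0.05 by limma, although 5 and 7 had an unadjusted p under 0.05, and the log2 difference of ETV5 was still 1.57 and 1.67. Without miR-217 mimic rep 2 and without mimic NC rep 2, 6 and 7 members were called.

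Profiles most like the average of the 9 members over the 4 libraries were those of C9orf91, RP1-102K2.8 and TIMM44, which lay at a root mean square distance of 0.0145, 0.0182 and 0.0184 on the log2 scale. C9orf91 was at 1.04 and 2.03 RPKM in mimic NC rep 1 and rep 2 and at 1.15 and 2.54 in miR-217 mimic. With 4 libraries many genes can share such a profile, and nothing further is read from it.

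With miR-217 mimic, the question is whether the members follow the microRNA. The cells received miR-217, whose main mature form is shown because its seed decides which transcripts it can pair with. The sequence is that of RefSeq (GRCh38.p14, chr2:55983020-55983042, minus strand), with the seed, bases 2 to 8, in capitals.
hsa-miR-217-5p: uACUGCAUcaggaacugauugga

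A transcript can pair with this seed through ATGCAGT, ATGCAGTA or TGCAGTA in its 3′UTR, the untranslated end of the mRNA. The longest annotated 3′UTR of each member, from 675 bases in ETV4 to 5585 bases in SPRED1, held none of these 3 words on the transcribed strand. Of the 9913 genes tested that have a 3′UTR, 21.7% held at least one of them, 14.5% ATGCAGT, 3.67% ATGCAGTA and 13.2% TGCAGTA. ATGCAGTA contains the other 2 words. The absence of a word says only that these letters are not in the annotated 3′UTRs.

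None of the 9 members tested passed an unadjusted or adjusted p under 0.05 between miR-217 mimic and mimic NC by limma, where 1.19% of all genes tested had an unadjusted p under 0.05 and 0 genes an adjusted one. Limma voom also gave 0 members at either threshold. Without miR-217 mimic rep 1, SPRY2 and SPRY4 had an unadjusted p under 0.05 by limma, at log2 differences of 0.66 and 0.71, and 0 members an adjusted one. The libraries of the groups overlapped in all 10 members. Of all genes tested, 9.72% had both miR-217 mimic libraries above both mimic NC libraries, and 1873 of the 13871 had both below. The 9 log2 differences were all above 0, where 6157 of the 13871 genes tested were. They ran from 0.06 (SE 0.13) for DUSP6 through 0.10 (SE 0.75) for ETV5 to 0.34 (SE 0.28) for SPRY2, each with an adjusted p of 1.00. Their median was 0.15, and that of all genes tested was -0.02. It turned below 0 without miR-217 mimic rep 2 (-0.25) and without mimic NC rep 1 (-0.08), and it was 0.58 and 0.49 without miR-217 mimic rep 1 and without mimic NC rep 2. The SE of ETV5 and that of ETV4 (log2 difference 0.13, SE 0.63) are many times the differences, since the spread between the numbers enters them. With 2 libraries in each group the smallest two-sided p of an exact permutation test would be 0.333. The same floor holds for the comparison of rep 2 with rep 1, which also sets 2 libraries against 2.

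Within a replicate number 1 library was set against 1, which has no replicate check. In rep 1 the ratio of miR-217 mimic to mimic NC was highest for SPRY2 at 1.37 (counting interval 1.09 to 1.71) and SPRED2 at 1.31 (1.12 to 1.54), and SPRY4 was level at 1.00 (0.881 to 1.14). In rep 2 it was highest for SPRY2 at 1.63 (1.34 to 1.98) and SPRY4 at 1.52 (1.37 to 1.69). SPRY2 was thus the member with the highest ratio in both numbers. ETV4 and ETV5, which differed most between numbers, had ratios of 1.11 and 1.15 in rep 1 and of 1.19 and 1.09 in rep 2. DUSP4 was at 1.10 and 1.18 and PHLDA1 at 1.04 and 1.18. The miR-217 mimic library lay above the mimic NC library in both numbers for 7 of the 10 members, where 25.4% of all genes tested did so. DUSP5 (0.920 and 1.40), DUSP6 (0.914 and 1.24) and SPRED1 (0.629 and 1.38) were lower in rep 1 and higher in rep 2.

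Promoter sequences from RefSeq, 250 bases before and 50 after the start, were found for 6 of the 10 members (DUSP6, SPRY2, SPRY4, SPRED1, SPRED2 and PHLDA1). They are shown for SPRY4, which differed most between numbers among these, for DUSP6, which did not separate, and for SPRED2, in which the one motif match was found. All are from GRCh38.p14 on the minus strand, written 5′ to 3′ in the sense of the gene, at chr5:142324198-142324497, chr12:89352452-89352751 and chr2:65432550-65432849 in that order. The capitals in SPRED2 mark the match.
SPRY4: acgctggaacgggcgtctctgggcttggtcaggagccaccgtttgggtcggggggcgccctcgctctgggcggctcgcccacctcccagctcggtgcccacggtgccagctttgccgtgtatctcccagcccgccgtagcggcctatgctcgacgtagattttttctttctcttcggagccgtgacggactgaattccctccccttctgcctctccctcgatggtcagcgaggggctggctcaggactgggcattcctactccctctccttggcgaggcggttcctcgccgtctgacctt
DUSP6: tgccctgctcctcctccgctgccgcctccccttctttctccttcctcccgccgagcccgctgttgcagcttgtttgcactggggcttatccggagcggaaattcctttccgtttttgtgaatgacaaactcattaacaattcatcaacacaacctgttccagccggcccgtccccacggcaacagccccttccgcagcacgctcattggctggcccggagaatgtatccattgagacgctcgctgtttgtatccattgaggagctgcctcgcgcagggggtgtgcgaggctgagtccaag
SPRED2: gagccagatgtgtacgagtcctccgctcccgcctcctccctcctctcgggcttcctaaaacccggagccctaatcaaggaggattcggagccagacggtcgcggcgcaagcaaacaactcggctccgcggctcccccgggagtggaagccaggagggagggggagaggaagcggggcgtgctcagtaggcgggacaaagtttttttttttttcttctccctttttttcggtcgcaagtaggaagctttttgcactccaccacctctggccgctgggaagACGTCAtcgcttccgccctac

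On both strands of the 6 promoters, 4 motifs were searched. They were the ETS motif CCGGAAG, the core TGACGT of the cyclic AMP response element, the AP-1 site TGANTCA and the CArG box. The CArG box is that of serum response factor. Shorter forms of the ETS motif were not searched. None of the 4 contains another. SPRED2 held TGACGT on the opposite strand at bases 280 to 285, which is 29 bases after the start, and the other 5 promoters held none of the 4. Of all 27305 promoters, 10.7% held CCGGAAG, 8.32% TGACGT, 7.76% the AP-1 site and 1.29% the CArG box. Among the 8350 promoters of genes tested, to which all of these members but SPRED1 belong, the shares were 20.7%, 12.5%, 4.5% and 0.958%. These are matches of letters and say nothing of which factor is bound.

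Paralogues of the members were examined in the same way. Of 13 paralogues, 6 were tested, all of them DUSP or PHLDA genes, with a median log2 difference of -0.30. At an unadjusted p under 0.05, 1 was higher and 2 were lower in rep 2, where 12.8% of all genes tested were higher and 17.4% lower. None passed the adjusted threshold. The ETV, SPRY and SPRED paralogues averaged under 1 RPKM and were not tested, so the median says nothing of them. Among the untested paralogues, 1 higher and 1 lower in rep 2 are named after their values were seen. ETV1 was at 0.422 and 0.790 RPKM in mimic NC rep 1 and rep 2 and at 0.452 and 0.835 in miR-217 mimic. DUSP8 was at 0.363 and 0.229 RPKM in mimic NC and at 0.353 and 0.199 in miR-217 mimic. DUSP1, a nuclear phosphatase of JNK, p38 and ERK that is itself an immediate-early gene, was far more abundant than any member and lay the other way. DUSP1 was at 239.9 and 100.7 RPKM in mimic NC rep 1 and rep 2 and at 205.6 and 47.5 in miR-217 mimic rep 1 and rep 2, with a log2 difference of -1.67 (adjusted p = 0.0580 by limma). DUSP16 was at -0.33, PHLDA3 at -0.09 and PHLDA2 at 0.45. Between the mimics DUSP1 was at -0.65, DUSP9 at -0.29, DUSP10 at 0.06 and PHLDA2 at 0.15, none past an unadjusted p under 0.05.

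The transcripts of the cascade itself, from GRB2 to the kinases downstream of ERK, were read against the same background. Of 28 listed, 24 were tested, 1 was higher and 6 were lower in rep 2 at an unadjusted p under 0.05, where 12.8% of all genes were higher and 17.4% lower, and the median log2 difference was -0.04. Only 1 passed the adjusted threshold, PEBP1, which encodes an inhibitor of RAF. Of all 13871 genes tested, 463 were higher and 514 lower in rep 2 at that threshold. PEBP1 was at 53.8 and 31.2 RPKM in mimic NC rep 1 and rep 2 and at 50.9 and 28.8 in miR-217 mimic, lower in rep 2 by a log2 difference of -0.78 (adjusted p = 0.0184 by limma). MAPK3, which encodes ERK1, was at -0.37, and the highest were MAP2K2 at 0.21 and PTPN11 at 0.14. Between the mimics no cascade transcript had an unadjusted p under 0.05. Of the 24, 8 had both miR-217 mimic libraries below both mimic NC libraries and 1 had both above. Over all 13871 genes tested these counts were 1873 and 1348. The lowest were SOS1, an exchange factor that activates RAS, at -0.34 and SHOC2 at -0.29, and the highest was ARAF at 0.11. SOS1 was at 7.74 and 7.19 RPKM in mimic NC rep 1 and rep 2 and at 6.18 and 5.26 in miR-217 mimic. Its unadjusted p was 0.0526 by limma. Between the numbers SOS1 differed by -0.15.

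**Figure D3:**
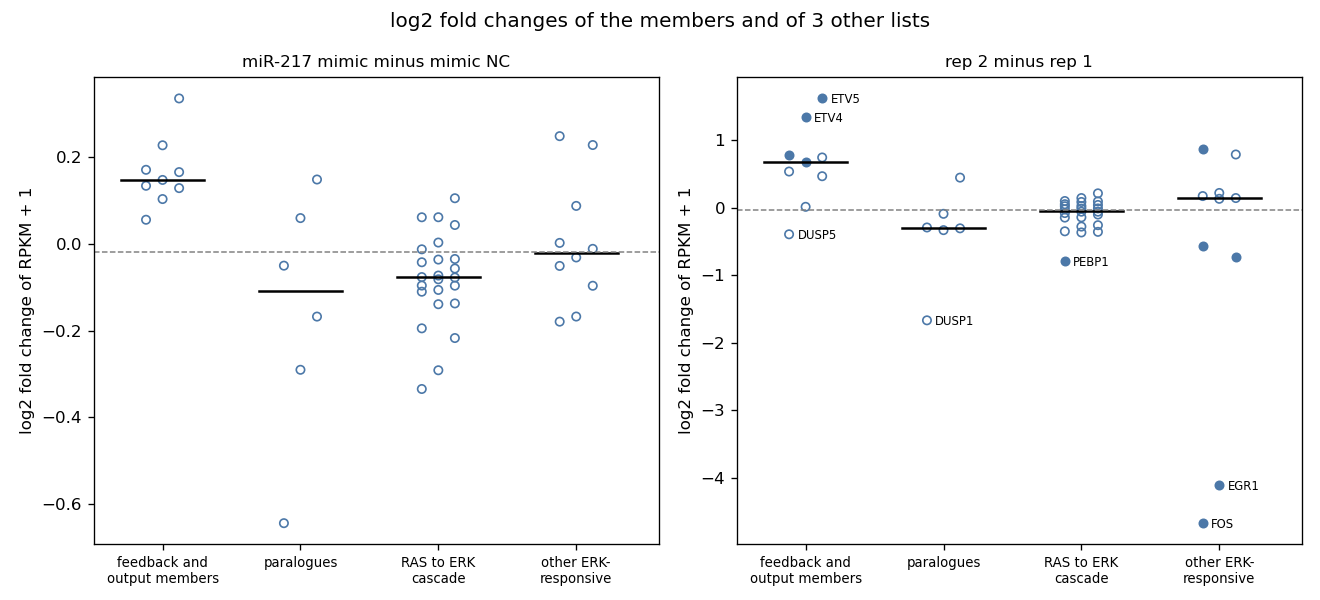
log2 fold change of RPKM + 1 for each tested gene of the members and of 3 other lists, between the mimics (left) and between the replicate numbers (right). Black lines are list medians, dashed lines the median of all genes tested, and filled points have an adjusted p under 0.05; ETV5 and ETV4 stand highest on the right at 1.62 and 1.34, and FOS and EGR1 lowest at -4.67 and -4.10.

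Other ERK-responsive transcripts split into both directions between the numbers. Of 12 listed, 10 were tested. At an unadjusted p under 0.05, 3 were higher and 4 lower in rep 2, where 12.8% of all genes tested were higher and 17.4% lower. At an adjusted p under 0.05, 1 was higher and 4 were lower, where 463 and 514 of the 13871 genes tested were. FOS, a subunit of AP-1, was at 42.4 and 0.548 RPKM in mimic NC rep 1 and rep 2 and at 37.1 and 0.643 in miR-217 mimic, a log2 difference of -4.67 (adjusted p = 0.0005 by limma). EGR1, an immediate-early zinc finger factor, was at 20.3 and 0.269 RPKM in mimic NC and at 20.6 and 0.234 in miR-217 mimic, a log2 difference of -4.10 (adjusted p = 0.0005 by limma). The rep 1 libraries were thus high in FOS and EGR1 and low in ETV4 and ETV5, and the rep 2 libraries the reverse.

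ERRFI1, a feedback inhibitor of EGFR that is not among the members, was on their side. ERRFI1 was at 3.42 and 7.22 RPKM in mimic NC rep 1 and rep 2 and at 2.98 and 6.12 in miR-217 mimic, a log2 difference of 0.87 (adjusted p = 0.0277 by limma). FOSL1, another AP-1 subunit that ERK stabilises, was at 0.79 (adjusted p = 0.0600 by limma). TRIB1 (-0.73, adjusted p = 0.0350 by limma) and EMP1 (-0.57, adjusted p = 0.0489 by limma) were lower, and TRIB1 is named because the count is small, after its value was seen. Between the mimics none of the list had an unadjusted p under 0.05, with FOSL1 at 0.25 and MYC at 0.23 highest and ERRFI1 at -0.18 and EMP1 at -0.17 lowest.

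**Figure D4:**
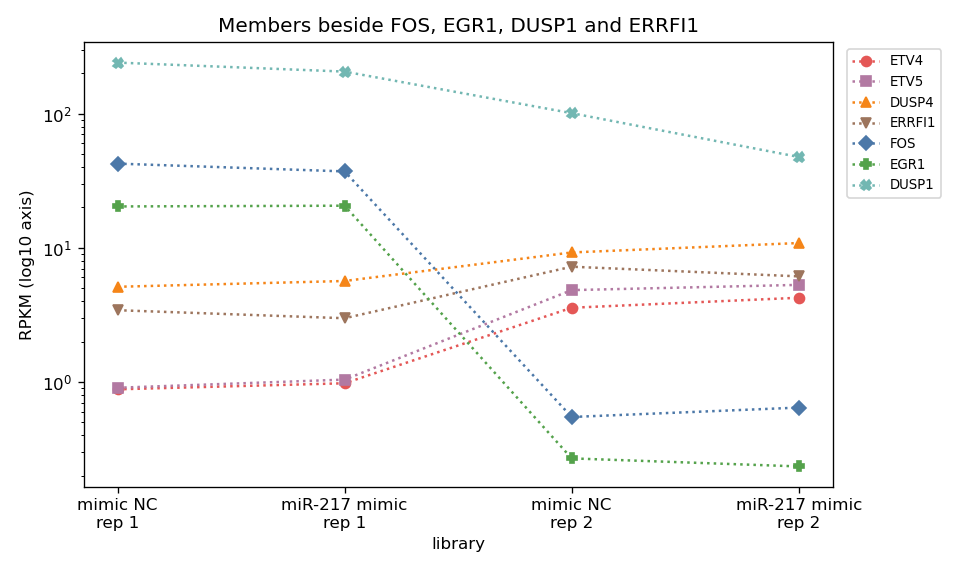
RPKM on a log10 axis in each of the 4 libraries for ETV4, ETV5, DUSP4, ERRFI1, FOS, EGR1 and DUSP1, with dotted lines to guide the eye. ETV4 and ETV5 are near 1 RPKM in both rep 1 libraries and between 3.57 and 5.29 in rep 2, while FOS is at 42.4 and 37.1 in rep 1 against 0.548 and 0.643 in rep 2, and EGR1 at 20.3 and 20.6 against 0.269 and 0.234.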

How the data were processed

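RNA-seq of MDA-MB-231 gave 4 libraries, 2 with mimic NC and 2 with miR-217 mimic. Per the labels, reads were trimmed with Trimmomatic 0.36 and counted with featureCounts of Subread 1.5.1 on hg38, and edgeR 3.12.1 is also listed. The aligner and the strand setting are not given in the sources used here. The authors deposited RPKM values, scaled by exon length and by the reads on all listed genes. Multiplied by length they summed to 1000000 per library, and 100% of values were whole multiples of 1 read (within 0.01 read).

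Log2(RPKM + 1) was tested with limma 3.58.1 (lmFit, eBayes with trend) in R 4.3.3 for the 13871 genes with a mean of at least 1 RPKM, two-sided, without covariates, with Benjamini-Hochberg adjustment over all genes tested. The fits were tested on simulated data with 200 genes changed 2.0 times in each comparison. At an adjusted p under 0.05 by limma, the fit between numbers recovered 87.5% of them and called 18 of 13409 unchanged genes. The fit between mimics recovered 79.5% and called 17 unchanged genes. With the replicate block 128 unchanged genes were called, and with the treatment as a term 132, more than in the main fits. The named genes were all members, SOS1 and NF1, the markers, the 2 highest and 2 lowest tested genes of each other list in each comparison, and the 3 genes nearest to the members' mean profile. A gene that this rule names is not reported here. The members and lists were chosen with earlier results of these data known. The alternatives comprised limma voom on recovered reads, median centring, a pseudocount of 0.1, a mean RPKM of at least 5, fits without the filter, a replicate block or the treatment as a term, and leaving out each library. KSR2 of the cascade list was not listed. Promoters and the microRNA are from RefSeq (GRCh38.p14), and 3′UTRs are from GENCODE 29. Plots were made with matplotlib 3.10.9 and Python 3.11.15.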

Additional observations from a re-analysis of the deposited data

Results flagged for a closer look

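Of the 10 transcripts, 3 lay below mimic NC in rep 1 and above it in rep 2 with miR-217 mimic, and the differences between the numbers were not tested. For DUSP5 the difference in log2(RPKM + 1) was -0.105 in rep 1 and 0.401 in rep 2, a gap of 0.506. For DUSP6 it was -0.08 and 0.19, a gap of 0.28. For SPRED1 it was -0.04 and 0.05, a gap of 0.0898, from 22 to 40 reads per library.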

How the results depend on the processing

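Between the mimics, 165 genes had an unadjusted p under 0.05, and the count was 82 with limma voom, 48 with a mean RPKM of at least 5, 877 without a filter, 1046 with the replicate block and 92 to 873 without single libraries, while 0 genes passed an adjusted p in every fit run. Labels do not say what pairs the libraries, and the deviations of same-numbered libraries from their group means correlated at 0.680 across genes. With the replicate block 1 member, SPRY2, had an unadjusted p under 0.05 at the same log2 fold change of 0.34, and without single libraries 0 to 2 members did (2, SPRY2 and SPRY4, without miR-217 mimic rep 1). The members' median went from -0.25 to 0.58 without single libraries, below 0 without miR-217 mimic rep 2 and without mimic NC rep 1. Single members ranged likewise from -0.25 to 0.58 for DUSP4, -0.18 to 0.47 for DUSP5, -0.0199 to 0.13 for DUSP6, -0.57 to 0.84 for ETV4, -0.71 to 0.92 for ETV5, -0.25 to 0.51 for PHLDA1, -0.0791 to 0.42 for SPRED2 and -0.26 to 0.71 for SPRY4. SPRY2 ranged from 0.00976 to 0.66 and was the only member tested that stayed above 0. Each such fit left 1 library on one side, which is assumed to vary like the other group.

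Between the numbers, 4184 genes had an unadjusted p under 0.05 (2474 with a mean RPKM of at least 5, 1810 to 6047 without single libraries). The adjusted count of 977 was 2262 with limma voom, 3 without a filter, 14 without miR-217 mimic rep 1, 9 without mimic NC rep 1, 1745 without miR-217 mimic rep 2 and 3917 without mimic NC rep 2. The adjusted count of members, 4, was 6 with limma voom, 0 without a filter, where 6 had an unadjusted p under 0.05, 2 of the 3 that reach a mean RPKM of at least 5, and 0 to 7 without single libraries. The unadjusted count of 8 was 3 of those 3, and 5 to 7 without single libraries. The members' median of 0.68 was 0.89 with limma voom and 0.87 with a pseudocount of 0.1. DUSP6 was at -0.00102 with limma voom and from -0.0828 to 0.11 without single libraries. The adjusted p ranged over the alternatives from 0.000139 to 0.0911 for ETV5, 0.000532 to 0.0931 for ETV4, 0.00271 to 0.207 for DUSP4 and 0.00369 to 0.235 for PHLDA1. The treatment as a term, median centring and the other alternatives changed no direction of a member. The causes of these shifts were not tested. With 22 to 40 reads per library, SPRED1 limits any comparison.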
